A study of Mus musculus with 5 samples.

Results

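The 39 genes described here encode the machinery that copies DNA in S phase. They were taken by gene symbol from a list of replication genes. All 39 were found among the 35275 gene identifiers of the deposited table, and all 39 passed the filter on low values that left 13298 genes for testing. Of the 39, 36 would pass on the Treg libraries alone; Orc1, Exo1 and E2f1 passed only through CD49lo, the group where they are high. RNA had been sequenced from sorted spleen T cells of wild-type C57BL/6 mice aged 3 months, in 5 libraries. The CD4 regulatory T cells, called CD4 Treg, had 2 libraries, the regulatory cells of the CD8 lineage, called CD8 Treg, had 1, and a population labelled CD49lo had 2. Lymphocytes had been enriched for CD8 cells before staining and sorting in every group. The CD49lo libraries held Cd8a transcripts, given below, but are taken as the effector-like cells of the study's design only by elimination. The sort markers, the sex of the mice and any pooling of animals are not given in the sources used here. Nothing in the labels says that replicates came from separate animals, so p-values measure the spread between these libraries, which may be technical.

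DNA replication starts at origins bound by the origin recognition complex, where CDC6 and CDT1 load the MCM2-7 helicase during G1. In S phase the helicase is switched on by CDC45, the GINS complex and MCM10, and DNA polymerases, the PCNA clamp and flap-processing enzymes then copy both strands. Most of these genes are transcribed under E2F transcription factors as cells pass from G1 into S phase, so resting T cells hold low levels of many of them and dividing T cells hold high levels. Some, such as the subunits of RPA and PCNA, also serve DNA repair.

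T cell genes were present in every library: Cd3e stood at 302 to 402 RPKM (reads per kilobase of gene, scaled to the reads of the library) over the 5 libraries, and Foxp3 at 146 and 146 RPKM (CD4 Treg) against 0.387 (CD8 Treg) and 1.66 and 0.795 (CD49lo). Cd8a was at 0.412 and 0.352 (CD4 Treg), 187 (CD8 Treg) and 215 and 255 (CD49lo) RPKM. Cd4 was at 201 and 219 (CD4 Treg), 5.77 (CD8 Treg) and 16.5 and 15.6 (CD49lo) RPKM. The libraries held 5441444 to 8354971 reads in genes, and 1 read in a gene of 1 kilobase equalled 0.120 to 0.184 RPKM. The library of CD8 Treg differed in composition, with 6.86% of its reads on the noncoding transcript Gm26917 against 3.33% to 4.16% in the others, and its scaling factor was 0.935 against 1.005 to 1.038. The female transcript Xist was at 35.5 and 27.2 (CD4 Treg), 0.0834 (CD8 Treg) and 0.0269 and 0 (CD49lo) RPKM, and the Y-linked Ddx3y at 0.0701 and 0, 18.3 and 18.3 and 27.4. Sex and the CD4 Treg group therefore cannot be told apart in any comparison with CD4 Treg below.

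Throughout, the values of a gene are given in RPKM as deposited, for CD4 Treg replicates 1 and 2, then CD8 Treg, then CD49lo replicates 1 and 2. Fold changes are on the log2(RPKM + 0.5) scale after trimmed mean of M values scaling, with a standard error (SE) from limma. A gene is called at an adjusted p under 0.05. The share of all genes at an unadjusted p under 0.05 was not counted, so counts at that p have no background here. The added 0.5 understates the changes of genes near or below that level, among them Orc1, Exo1, E2f1 and Mcm10 in both Treg populations.

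The replication genes were highest in CD49lo. Their summed level was 447 and 461 RPKM (CD4 Treg), 481 (CD8 Treg) and 1027 and 840 (CD49lo). Both CD4 Treg libraries lay below both CD49lo libraries for all 39 genes in the deposited values and for 38 after scaling, against 32.2% of all genes tested; the exception after scaling was Rpa1. The CD8 Treg library also lay below both CD49lo libraries for all 39 genes as deposited and for 36 after scaling, against 40.9% of all genes. The 3 that crossed on scaling were Cdt1, Mcm2 and Chaf1b. Orc1, Exo1 and E2f1 are in all of these counts but are no support, since they passed the filter only through CD49lo. Gins1 and Gins2 are in them with the limits given above. In these bulk samples, fewer cells in cycle and less RNA per cell cannot be told apart.

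**Figure D1:**
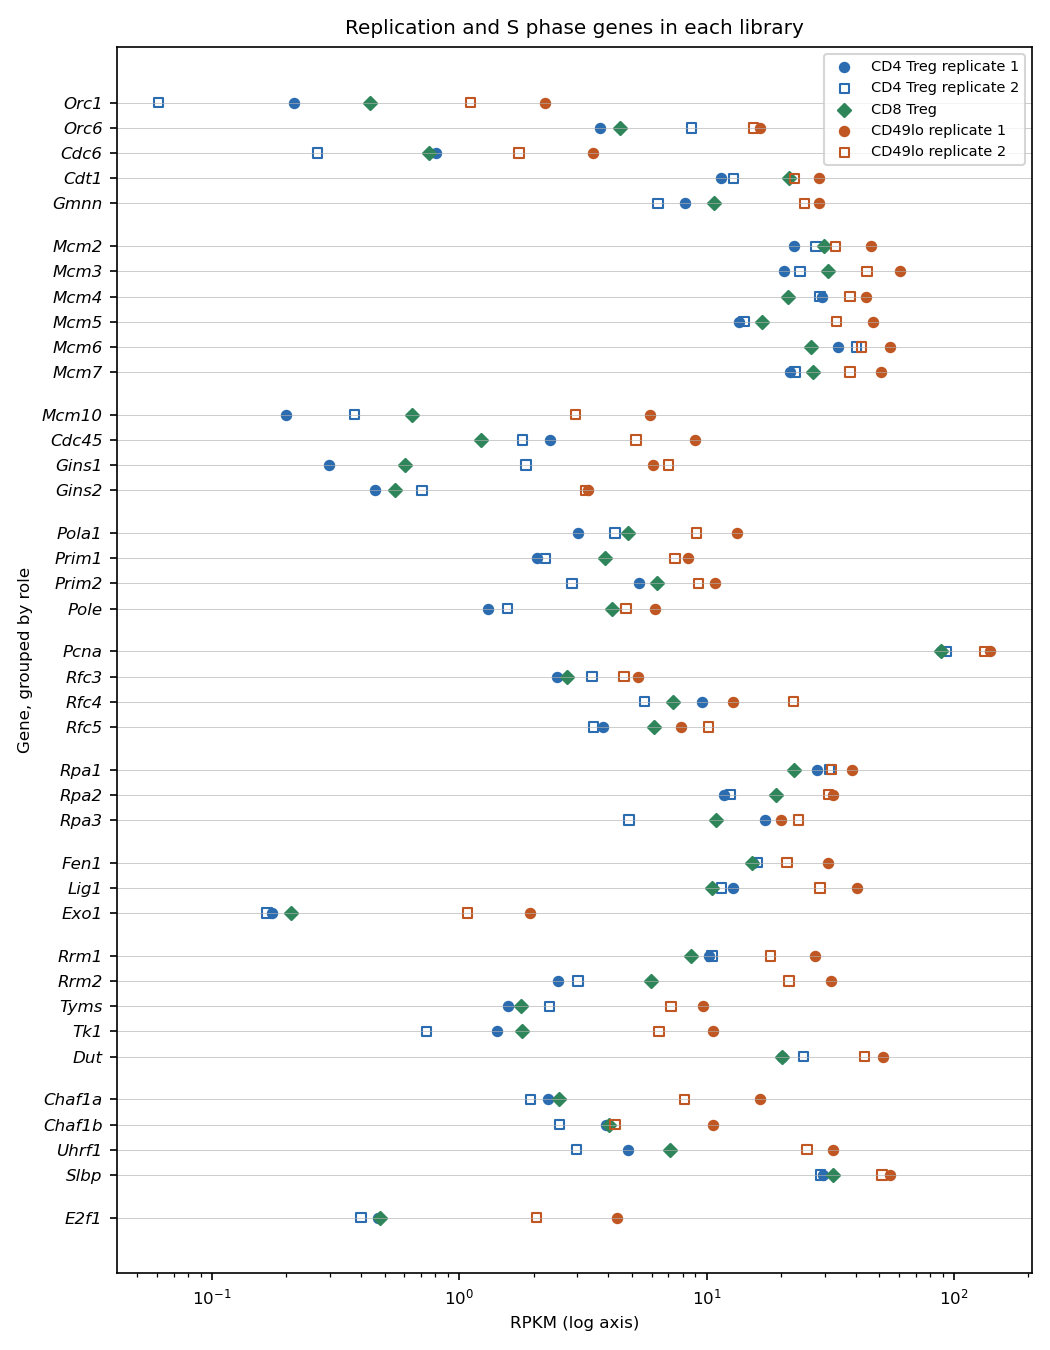
Level of each of the 39 genes in each library, in RPKM on a log axis, with genes grouped by role from top (origin factors) to bottom (E2f1). Orange CD49lo points lie to the right of the blue CD4 Treg and green CD8 Treg points for every gene.

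The comparison of CD4 Treg with CD49lo asks how the classical regulatory population differs from the effector-like one. Of the 39 genes, 34 were lower in CD4 Treg and 0 were higher, where 12.8% of all genes tested were called lower and 9.45% higher. At an unadjusted p under 0.05 the counts were 37 lower and 0 higher. limma-voom on recovered reads called 33 lower and 0 higher, where it called 11.8% of all genes tested lower. The median log2 fold change of the 39 genes was -1.38, with a range of -3.01 to -0.22, against a median of -0.03 over all genes tested. The 34 include Orc1, Exo1 and E2f1, which had to differ to be tested at all and are no support. Among the other 36 genes, 31 were lower. One of these is Gins1, which would not pass the filter on the CD4 Treg libraries alone. The 37 and the median include the same 3 genes and Gins1. The 5 genes that did not pass were Mcm6, Rfc3, Rpa1, Rpa3 and Chaf1b. The count fell in each fit without 1 library, most without a CD49lo library, and so did the calls over all genes. The median log2 fold change was -1.19 and -1.585 without CD49lo replicates 1 and 2. Without CD4 Treg replicates 1 and 2 it was -1.49 and -1.34. With no filter beyond 1 read in any library the count was 3, where 1.98% of all genes then tested were called lower. It was 22 with a filter of 1 RPKM in every library of a group (11.2% of all genes lower). With a variance prior without a trend it was also 22 (9.38%).

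The comparison of CD8 Treg with CD49lo sets 2 CD8 populations side by side. Of the 39 genes, 10 were lower in CD8 Treg and 0 were higher, where 3.59% of all genes tested were called lower and 1.71% higher. The counts at an unadjusted p under 0.05 were 29 and 0. limma-voom called 9 and 0, where it called 2.55% of all genes tested lower. The 10 called genes were all among the 36 that would pass the filter on the Treg libraries alone. The 29 include Exo1 and E2f1, which are no support. They also include Gins1 and Gins2, which would not pass the filter on the CD8 Treg library alone. The median log2 fold change was -1.03, with a range of -2.58 to -0.11, against -0.04 over all genes. All 10 genes were among the 34 called in CD4 Treg; both comparisons share the CD49lo libraries, so this overlap is no independent support. The 10 calls rest on 1 CD8 Treg library, which the fit assumes to vary like the replicated groups. The count was 0 without a filter, with a filter of 1 RPKM or with a prior without a trend. Of all genes, 0.403%, 1.42% and 0.00752% were then called lower. At an unadjusted p under 0.05 these counts of 0 became 20, 25 and 23, in the order named. Without a scaling factor the count was 17, where 4.93% of all genes were called lower. It fell in each fit without 1 library, most without a CD49lo library, and so did the calls over all genes.

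Set directly against CD4 Treg, the CD8 Treg library was higher in 3 of the 39 genes and lower in 0. Of all genes tested, 8.51% were called higher and 8.35% lower, so the share higher is near the background and the share lower under it. The 3 were Pole, Cdt1 and Rpa2. At an unadjusted p under 0.05 the counts were 8 higher and 0 lower, with no background for that p. limma-voom called 2 higher and 0 lower, where it called 1817 of 13298 genes higher or lower. The median log2 fold change of the list was 0.32, against 0.02 over all genes. After scaling the CD8 Treg library lay above both CD4 Treg libraries for 25 genes (42.1% of all genes tested) and below both for 6 (39.3%). In the deposited values it lay above both for 22 of the 39 genes and below both for 7. The count of higher calls was 0 without a filter and with a prior without a trend, where 6 genes were higher at an unadjusted p under 0.05. Over all genes, 1277 and 1192 were then called higher or lower, against 2241 in the main fit. The count also fell in each fit without 1 library, and so did the calls over all genes.

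**Figure D2:**
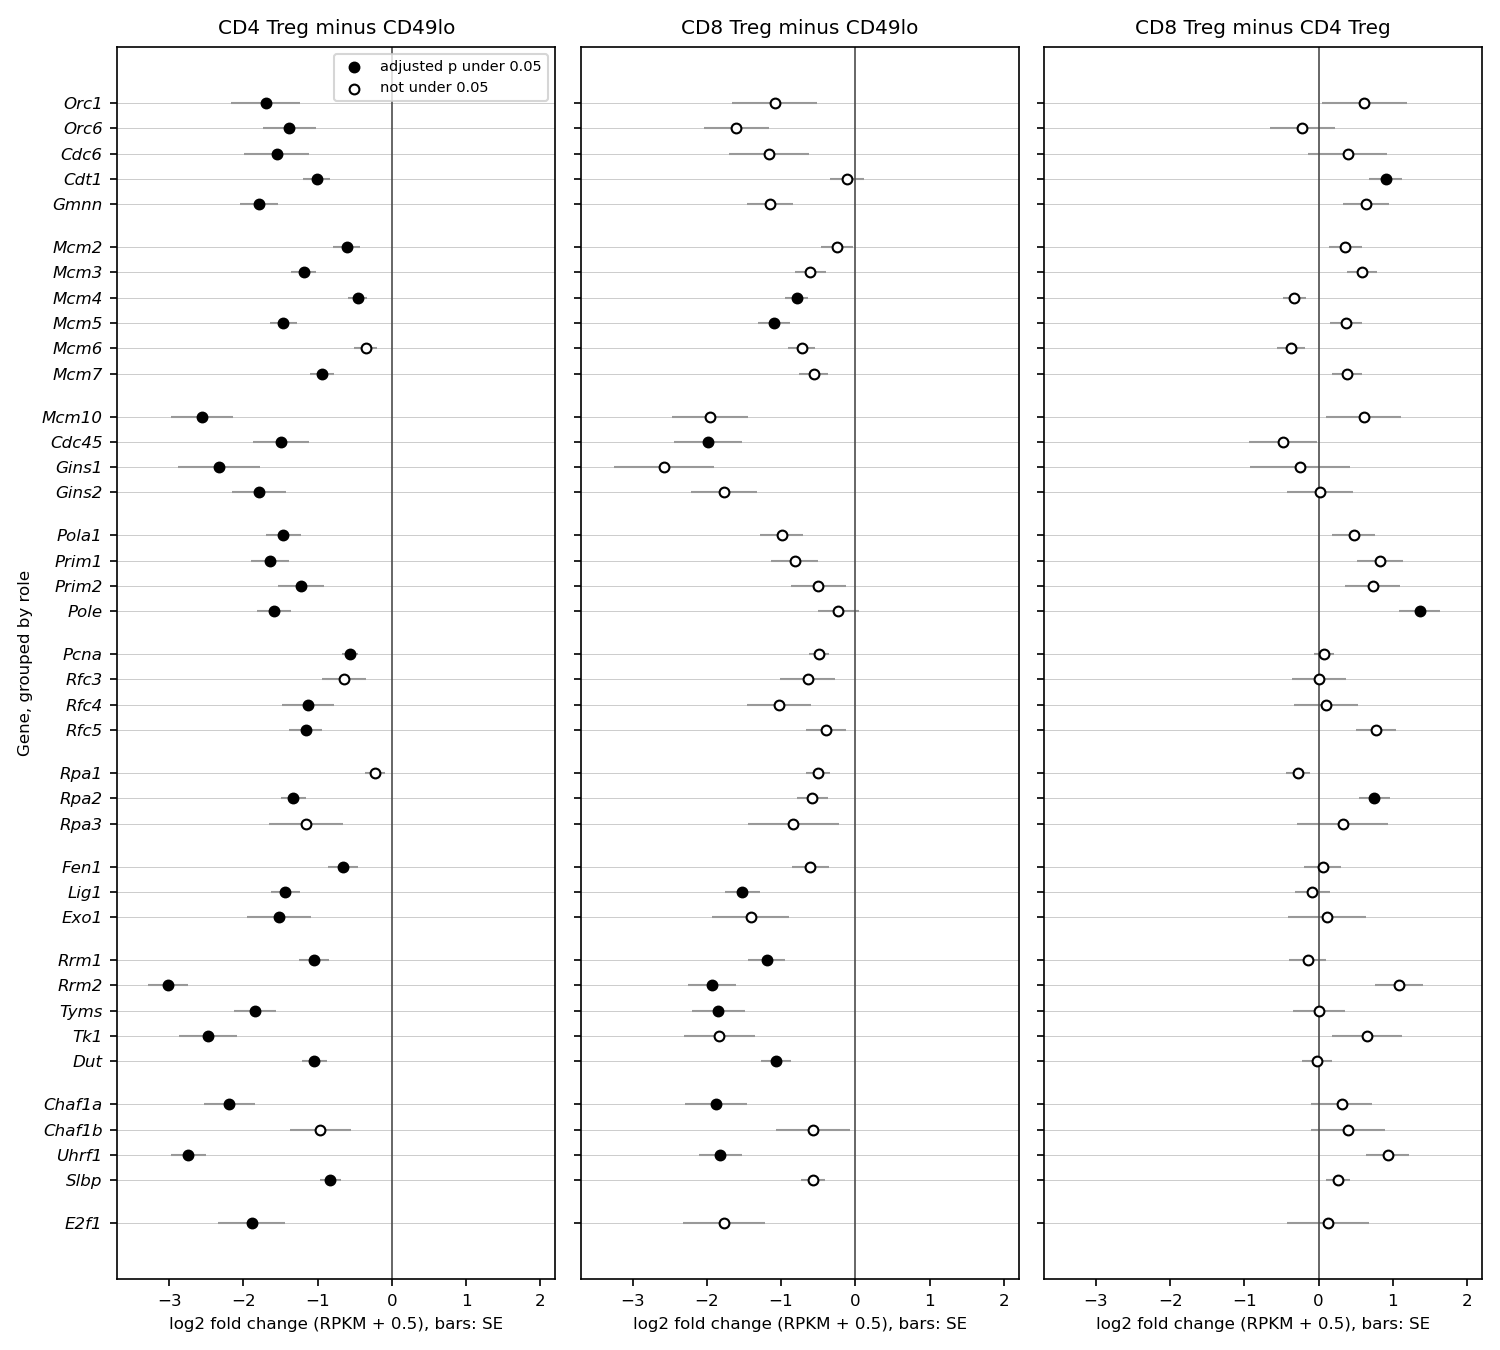
Log2 fold change of each gene with its standard error in the 3 comparisons, on the log2(RPKM + 0.5) scale, filled where the adjusted p was under 0.05. In the first panel 34 points are filled, in the second 10 and in the third 3, and no point of the first or second panel lies right of 0.

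The promoters of these genes are shown because E2F factors bind near their start sites and because the genes moved together. RefSeq promoter windows on GRCm38.p6, from 250 bases before to 50 after a start site, were at hand for 32 of the 39 genes. Those without one were Gmnn, Mcm4, Gins1, Gins2, Prim2, Pole and Exo1. The windows were searched on both strands for the E2F-like words TTTGGCGC, TTTCCCGC, TTTCGCGC and TTTGCCGC, some of which can overlap on opposite strands. A word was found for 11 of 32 genes (34.4%), against 4.82% of 9293 tested genes with a window and 2.60% of all 27025 genes with one. The 11 were Orc1, Cdc6, Cdt1, Mcm3, Mcm5, Mcm6, Mcm7, Pola1, Rfc3, Lig1 and Uhrf1. A match describes letters in the window and is not a measured binding site.

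Stretches that lie before both the RefSeq start site and the deposited gene are shown for 3 of them, 5′ to 3′ on the gene's strand, with the E2F-like words in capitals. They are chr8:75109316-75109407 (plus strand) for Mcm5, chr1:128359706-128359855 (minus strand) for Mcm6 and chrX:93632246-93632333 (minus strand) for Pola1.
Mcm5: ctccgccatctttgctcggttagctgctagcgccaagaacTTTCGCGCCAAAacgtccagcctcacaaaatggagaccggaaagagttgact
Mcm6: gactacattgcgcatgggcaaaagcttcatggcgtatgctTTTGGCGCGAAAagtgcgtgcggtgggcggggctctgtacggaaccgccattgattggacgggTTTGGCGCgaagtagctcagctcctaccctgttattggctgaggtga
Pola1: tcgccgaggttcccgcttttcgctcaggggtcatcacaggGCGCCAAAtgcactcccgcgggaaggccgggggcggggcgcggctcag
In Mcm5 the capitals join 2 overlapping words on opposite strands, the first of which begins 153 bases before the start site. Mcm6 holds such an overlapping pair, beginning 110 bases before its start site, and a further word. Pola1 holds 1 word, 138 bases before its start site.

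Genes with and without a word had overlapping changes, and the difference was not tested. The median log2 fold change of CD4 Treg over CD49lo was -1.43 for the 11 genes with a word and -1.16 for the 21 without. That of CD8 Treg over CD49lo was -0.99 and -1.03. The 11 include Orc1 and the 21 include E2f1, which are no support. In Mcm6, which has the most words, the change in CD4 Treg was the smallest of the 11 (-0.35). The sequence CCAAT, bound by NF-Y and read on both strands as CCAAT or ATTGG, was found for 65.6% of the 32 genes, against 42.9% of tested genes with a window. Among 18 mitosis genes with a window the E2F-like words were found in 5.56% and CCAAT in 88.9%. The 54 other replication genes with a window, described below, had the words in 35.2% and CCAAT in 51.9%.

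Origin recognition and licensing factors were all called lower in CD4 Treg than in CD49lo (5 of 5, Orc1 with the limit given above), and 0 of 5 passed between CD8 Treg and CD49lo. Gmnn encodes geminin, the inhibitor of CDT1 that keeps origins from being licensed again within a cycle. It was at 8.15 and 6.36 (CD4 Treg), 10.7 (CD8 Treg) and 28.5 and 24.9 (CD49lo) RPKM, a log2 fold change over CD49lo of -1.79 ± 0.26 for CD4 Treg (adjusted p = 0.000929) and -1.15 ± 0.31 for CD8 Treg (adjusted p = 0.0731). The groups did not overlap. Its target Cdt1, the licensing factor, had a higher place in CD8 Treg. It was at 11.4 and 12.8 RPKM, then 21.4, then 28.5 and 22.7. As deposited, the CD8 Treg value sat just under the lower CD49lo library and well above both CD4 Treg libraries, with a log2 fold change over CD4 Treg of 0.905 ± 0.22 (adjusted p = 0.0233) and over CD49lo of -0.11 ± 0.22 (adjusted p = 0.842).

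The scarcest licensing genes were Orc1, the largest subunit of the origin recognition complex, and Cdc6, the loading ATPase. Orc1 was at 0.214 and 0.0610, 0.437 and 2.22 and 1.11 RPKM and rested on 1 to 8 reads in each Treg library. Cdc6 was at 0.806 and 0.268, 0.754 and 3.46 and 1.74 RPKM. In both, the CD49lo libraries stood above the rest, with replicate 1 the higher. Orc6, the smallest origin recognition subunit, was at 3.71 and 8.67, 4.48 and 16.5 and 15.5 RPKM, so that the CD4 Treg replicates differed more from each other than from CD8 Treg. Log2 fold changes of CD4 Treg over CD49lo were -1.55 ± 0.44 for Cdc6 (adjusted p = 0.0315) and -1.38 ± 0.36 for Orc6 (adjusted p = 0.0220). That of Orc1, -1.702 ± 0.47, is a description, since the gene was tested only because of its CD49lo reads.

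The 6 subunits of the MCM2-7 helicase were among the more abundant genes of the list, and 5 of 6 were lower in CD4 Treg than in CD49lo. Their summed level was 141 and 157 RPKM (CD4 Treg), 152 (CD8 Treg) and 304 and 229 (CD49lo). Mcm5 had the largest change of the 6 in CD4 Treg. It was at 13.5 and 14.2 (CD4 Treg), 16.7 (CD8 Treg) and 47.1 and 33.4 (CD49lo) RPKM, with log2 fold changes over CD49lo of -1.46 ± 0.18 (adjusted p = 0.000366) and -1.09 ± 0.22 (adjusted p = 0.0217). Mcm3 was at 20.5 and 23.8, 31.00 and 60.8 and 44.4 RPKM (-1.19 ± 0.17 in CD4 Treg, adjusted p = 0.000870). Mcm7 was at 21.7 and 22.8, 26.96 and 50.6 and 38.01 RPKM (-0.94 ± 0.16, adjusted p = 0.00260). For these 3 subunits CD8 Treg lay above both CD4 Treg libraries and below both CD49lo libraries.

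Mcm4 and Mcm6 had another order, with the lowest value in CD8 Treg. Mcm4 was at 29.2 and 28.8 (CD4 Treg), 21.3 (CD8 Treg) and 43.9 and 37.99 (CD49lo) RPKM, and passed in both comparisons with CD49lo (-0.46 ± 0.13, adjusted p = 0.0301, for CD4 Treg, and -0.79 ± 0.16, adjusted p = 0.0221, for CD8 Treg). Mcm6 was at 34.1 and 40.3, 26.4 and 55.05 and 42.3 RPKM and passed in neither (-0.35 ± 0.15, adjusted p = 0.141, and -0.72 ± 0.19, adjusted p = 0.0612). Its second CD4 Treg library was close to the lower CD49lo library. Mcm2 was at 22.6 and 27.6, 29.9 and 46.1 and 33.2 RPKM (-0.61 ± 0.18 in CD4 Treg, adjusted p = 0.0367). Against CD4 Treg, the CD8 Treg library had log2 fold changes of -0.33 ± 0.16 for Mcm4 and -0.37 ± 0.19 for Mcm6, and neither passed (adjusted p = 0.208 and 0.223).

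The 6 subunits act in equal numbers in the helicase, but their transcripts per length were unequal in the Treg libraries. The most abundant subunit, Mcm6, exceeded the least abundant, Mcm5, by 2.53 and 2.84 times in CD4 Treg. For CD8 Treg, Mcm3 exceeded Mcm5 by 1.86 times. In CD49lo the highest exceeded the lowest by 1.38 and 1.34 times, with Mcm3 the highest in both libraries and Mcm4 or Mcm2 the lowest. The share of Mcm5 in the summed level was 9.52% and 9.004% (CD4 Treg), 11.0% (CD8 Treg) and 15.5% and 14.6% (CD49lo). The share of Mcm6 was 24.1% and 25.6%, 17.4%, and 18.1% and 18.5%. These shares were not tested.

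**Figure D3:**
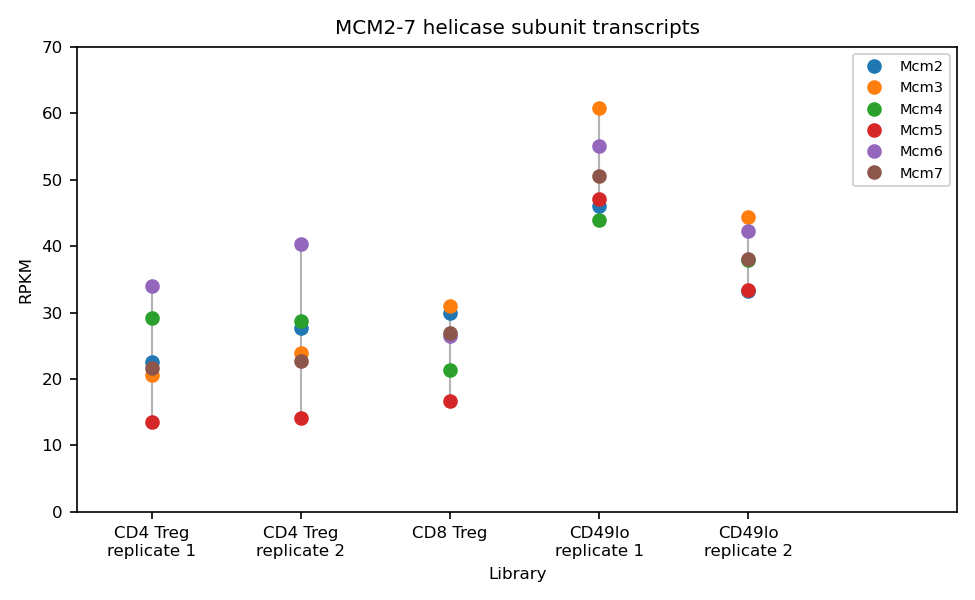
Levels of the 6 MCM2-7 transcripts in each library, in RPKM, with a grey line from the lowest to the highest. The points spread 2.53 to 2.84 times in CD4 Treg and 1.34 to 1.38 times in CD49lo, where the lowest point is at 33.2 RPKM.

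Factors that turn the loaded helicase on were scarce in both Treg populations. In CD4 Treg, 4 of 4 were lower than in CD49lo, Gins1 with the limit given above. Mcm10, which helps to start unwinding, was at 0.199 and 0.378 (CD4 Treg), 0.643 (CD8 Treg) and 5.93 and 2.94 (CD49lo) RPKM (-2.56 ± 0.42, adjusted p = 0.00199, in CD4 Treg). Cdc45, the helicase cofactor, was at 2.33 and 1.801, 1.23 and 8.94 and 5.19 RPKM and passed in both comparisons with CD49lo (-1.496 ± 0.37, adjusted p = 0.0183, and -1.98 ± 0.46, adjusted p = 0.0402). It was lowest in CD8 Treg. The GINS subunits Gins1 (0.297 and 1.86, 0.606 and 6.06 and 7.01 RPKM) and Gins2 (0.455 and 0.707, 0.549 and 3.31 and 3.24 RPKM) showed CD8 Treg between the CD4 Treg replicates. Their log2 fold changes in CD8 Treg over CD49lo, -2.58 ± 0.67 and -1.76 ± 0.44, did not pass (adjusted p = 0.0631 and 0.0550), and Gins1 rested there on 4 reads.

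Primase and polymerase genes had the highest median of any role for CD8 Treg over CD4 Treg (log2 fold change 0.78). All 4 were lower in CD4 Treg than in CD49lo and 0 of 4 passed between CD8 Treg and CD49lo. Pole, the catalytic subunit of the leading-strand polymerase epsilon, was at 1.31 and 1.57 (CD4 Treg), 4.14 (CD8 Treg) and 6.199 and 4.72 (CD49lo) RPKM. The CD8 Treg value lay near the lower CD49lo library, with a log2 fold change over CD4 Treg of 1.36 ± 0.28 (adjusted p = 0.00937) and over CD49lo of -0.23 ± 0.28 (adjusted p = 0.717). The 2 primase subunits also lay between the groups in CD8 Treg: Prim1 was at 2.06 and 2.23, 3.895 and 8.42 and 7.45 RPKM, and Prim2 at 5.34 and 2.85, 6.33 and 10.8 and 9.28. Neither passed against CD4 Treg (adjusted p = 0.112 and 0.236). Pola1, the catalytic subunit of the primase-bound polymerase alpha whose promoter is printed above, was at 3.02 and 4.26, 4.805 and 13.3 and 9.12 RPKM (-1.47 ± 0.24 in CD4 Treg, adjusted p = 0.00193).

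Pcna, the sliding clamp, was the most abundant of the 39 transcripts in every library and one of the least changed. It was at 88.6 and 93.2 (CD4 Treg), 88.6 (CD8 Treg) and 140.4 and 134 (CD49lo) RPKM, and its small spread between replicates let a log2 fold change of -0.56 ± 0.11 pass in CD4 Treg (adjusted p = 0.00573), while -0.49 ± 0.14 did not pass in CD8 Treg (adjusted p = 0.0777). A near-identical copy, Pcna-ps2, stood at 0.769 to 2.09 RPKM. Of the clamp loader subunits, Rfc5 was at 3.83 and 3.48, 6.102 and 7.88 and 10.2 RPKM (-1.16 ± 0.22 in CD4 Treg, adjusted p = 0.00430). Rfc4 was at 9.58 and 5.604, 7.34 and 12.8 and 22.4 RPKM (-1.13 ± 0.35, adjusted p = 0.0464). Rfc3, at 2.48 and 3.44, 2.72 and 5.27 and 4.64 RPKM, did not pass (adjusted p = 0.166). Rfc4 overlaps the abundant gene Eif4a2 on the other strand by 194 bases. Other genes of the list also overlap expressed genes on the other strand. Among them are Gins2 (Gse1, 2758 bases), Chaf1a (Ubxn6, 982 bases) and Cdc45 (Ufd1l, 209 bases). Whether the counting used strand is not given in the sources used here.

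The 3 subunits of RPA, which coats single-stranded DNA, were called in 1 case of 3. Rpa2 was lower in CD4 Treg than in CD49lo and higher in CD8 Treg than in CD4 Treg. It was at 11.7 and 12.5 RPKM, 19.2 and 32.4 and 31.01, with the 1 CD8 Treg library between the other groups. Its log2 fold change was -1.33 ± 0.17 in CD4 Treg over CD49lo (adjusted p = 0.000466) and 0.75 ± 0.21 in CD8 Treg over CD4 Treg (adjusted p = 0.0373). Rpa1, the largest subunit, was at 27.8 and 31.3, 22.5 and 38.8 and 31.96 RPKM. It was lowest in CD8 Treg, and neither comparison with CD49lo passed (-0.22 ± 0.14, adjusted p = 0.290, for CD4 Treg, and -0.500 ± 0.17, adjusted p = 0.135, for CD8 Treg). Rpa3, the smallest, was at 17.3 and 4.85, 10.9 and 20.01 and 23.5 RPKM, and the CD4 Treg replicates spanned more than the distance to CD49lo (adjusted p = 0.137). Its log2 fold change was -2.03 without CD4 Treg replicate 1 (adjusted p = 0.0272) and -0.28 without replicate 2 (adjusted p = 0.691), against -1.16 ± 0.50 with both.

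Lig1, the ligase that joins Okazaki fragments, passed in both comparisons with CD49lo. It was at 12.7 and 11.5 (CD4 Treg), 10.5 (CD8 Treg) and 40.6 and 28.7 (CD49lo) RPKM, with log2 fold changes over CD49lo of -1.43 ± 0.19 (adjusted p = 0.000588) and -1.52 ± 0.23 (adjusted p = 0.00658). The value for CD8 Treg over CD4 Treg was -0.09 ± 0.23 (adjusted p = 0.851). The flap endonuclease Fen1 was at 15.4 and 16.1, 15.2 and 31.1 and 21.1 RPKM and changed less (-0.66 ± 0.20 in CD4 Treg, adjusted p = 0.0458). The exonuclease Exo1 was the scarcest of the group at 0.176 and 0.167, 0.209 and 1.93 and 1.08 RPKM, from 5 to 7 reads in each Treg library. Its log2 fold change in CD4 Treg, -1.52 ± 0.43, is a description, for the same reason as that of Orc1.

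Genes of nucleotide supply held the largest change of the list, and 5 of 5 were lower in CD4 Treg and 4 of 5 in CD8 Treg than in CD49lo. Rrm2 (chromosome 12, 24708241 to 24714146 on mm10) encodes the small subunit of ribonucleotide reductase, which makes deoxyribonucleotides and is tied to S phase. It was at 2.499 and 3.02 (CD4 Treg), 5.93 (CD8 Treg) and 31.98 and 21.5 (CD49lo) RPKM, with the 1 CD8 Treg library between the other groups. It was 8.08-fold lower in CD4 Treg (-3.01 ± 0.27, adjusted p = 5.62e-05) and 3.81-fold lower in CD8 Treg (-1.93 ± 0.33, adjusted p = 0.0104) than in CD49lo, and 1.08 ± 0.33 in CD8 Treg over CD4 Treg did not pass (adjusted p = 0.0513). The large subunit Rrm1 changed less, at 10.2 and 10.5, 8.65 and 27.5 and 18.2 RPKM (-1.05 ± 0.20, adjusted p = 0.00515, and -1.19 ± 0.25, adjusted p = 0.0260).

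Tyms and Dut, enzymes of thymidylate supply, were lower in both Treg populations than in CD49lo. Tyms was at 1.58 and 2.32, 1.78 and 9.68 and 7.18 RPKM (-1.84 ± 0.29, adjusted p = 0.00154, for CD4 Treg, and -1.84 ± 0.35, adjusted p = 0.0176, for CD8 Treg). Dut was at 20.1 and 24.6, 20.3 and 51.4 and 43.6 RPKM (-1.05 ± 0.17, adjusted p = 0.00173, and -1.07 ± 0.20, adjusted p = 0.0174). Tk1, the salvage thymidine kinase, passed in CD4 Treg and not in CD8 Treg: it was at 1.42 and 0.738, 1.79 and 10.6 and 6.42 RPKM (-2.48 ± 0.39, adjusted p = 0.00159, and -1.83 ± 0.48, adjusted p = 0.0625). Whether the CD4 Treg and CD8 Treg levels of these 3 genes differ was tested directly, and none passed, with a smallest adjusted p of 0.409. The log2 fold changes of CD8 Treg over CD4 Treg were -0.02 ± 0.20 for Dut and 0.65 ± 0.48 for Tk1, and for Tyms -0.00012 ± 0.35. A p that misses the threshold does not show equal levels.

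Of the chromatin genes, Uhrf1 changed nearly as much as Rrm2. Uhrf1 (chromosome 17, 56303321 to 56323486) brings the maintenance DNA methyltransferase to newly copied DNA. It was at 4.81 and 2.97 (CD4 Treg), 7.12 (CD8 Treg) and 32.6 and 25.4 (CD49lo) RPKM, with the 1 CD8 Treg library between the other groups. Its log2 fold changes over CD49lo were -2.74 ± 0.24 (adjusted p = 5.12e-05) and -1.82 ± 0.29 (adjusted p = 0.00835). That of CD8 Treg over CD4 Treg, 0.93 ± 0.29, did not pass (adjusted p = 0.0610). Chaf1a, the large subunit of the CAF-1 histone chaperone, was at 2.29 and 1.94, 2.54 and 16.5 and 8.15 RPKM (-2.19 ± 0.34, adjusted p = 0.00149, and -1.88 ± 0.42, adjusted p = 0.0334). Its partner Chaf1b, at 3.93 and 2.53, 4.02 and 10.6 and 4.26 RPKM, passed in neither, and the 2 CD49lo libraries differed more from each other than the lower one did from the Treg libraries. Slbp, which binds the stem-loop of histone mRNAs, was at 29.5 and 28.8, 32.5 and 55.2 and 51.2 RPKM (-0.83 ± 0.14 in CD4 Treg, adjusted p = 0.00203). E2f1, the transcription factor of the list, was at 0.468 and 0.400, 0.478 and 4.34 and 2.05 RPKM, from 6 to 8 reads in each Treg library. Its log2 fold changes over CD49lo, -1.89 ± 0.45 (CD4 Treg) and -1.76 ± 0.55 (CD8 Treg), are likewise a description.

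Genes were also split by level, with a mean over all 5 libraries that a low Treg level itself pulls down. The 20 genes with a mean of at least 10 RPKM over the 5 libraries had a median log2 fold change of -1.05 in CD4 Treg and -0.76 in CD8 Treg over CD49lo. For the 19 below 10 RPKM the medians were -1.59 and -1.41. The 19 include Orc1, Exo1 and E2f1, which passed the filter only through CD49lo and are no support. The -1.41 is the value of Exo1 itself. The largest changes in CD4 Treg, those of Rrm2 and Uhrf1, were among the 20. The split was not tested.

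Genes of the same pathway outside the list were called lower more often than higher in CD4 Treg. Of 67 other replication genes, 24 were lower and 3 higher in CD4 Treg than in CD49lo, with a median log2 fold change of -0.57. Of all genes tested, 12.8% were called lower and 9.45% higher, so the share higher is under the background. The 6 with the smallest p were Samhd1, Pclaf, Hells, Clspn, Topbp1 and Asf1b. Pclaf, a PCNA-binding protein listed under its older symbol 2810417H13Rik, was at 0.765 and 1.38, 1.497 and 23.5 and 18.1 RPKM (-3.75 ± 0.33, adjusted p = 5.12e-05). Hells, a chromatin remodeller, was at 2.31 and 3.19, 7.38 and 20.5 and 13.5 RPKM (-2.39 ± 0.23, adjusted p = 0.000100). Clspn, of the replication checkpoint, had a value of -2.92 ± 0.33, Asf1b, a histone chaperone, of -2.22 ± 0.34 and Topbp1, an initiation and checkpoint scaffold, of -0.89 ± 0.12, with adjusted p up to 0.00151.

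Samhd1, which breaks down deoxyribonucleotides and so acts against the nucleotide supply genes above, went the other way. It was at 325 and 323 (CD4 Treg), 89.3 (CD8 Treg) and 130.0 and 129.9 (CD49lo) RPKM. It was higher in CD4 Treg than in CD49lo (1.34 ± 0.09, adjusted p = 1.26e-05) and lower in CD8 Treg than in CD4 Treg (-1.75 ± 0.11, adjusted p = 1.62e-05). The 3 groups did not overlap. The other 2 that were higher in CD4 Treg than in CD49lo were the mismatch repair gene Msh6 (0.66 ± 0.15, adjusted p = 0.0111) and Chtf8 (0.397 ± 0.12, adjusted p = 0.0483), of an alternative clamp loader.

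Between CD8 Treg and CD49lo, 5 of the 67 were lower and 0 higher, where 3.59% and 1.71% of all genes tested were. The median was -0.35. At an unadjusted p under 0.05, 24 were lower and 2 higher. limma-voom called 5 and 0, where it called 2.55% of all genes tested lower. The 5 in the main fit were Pclaf (-3.29 ± 0.40, adjusted p = 0.00234), Asf1b (-2.399 ± 0.42, adjusted p = 0.0122), Usp1 (-0.75 ± 0.14, adjusted p = 0.0172), Clspn (-1.99 ± 0.40, adjusted p = 0.0221) and Dtl (-1.99 ± 0.46, adjusted p = 0.0411). Timeless, a fork protection gene with the next smallest p, did not pass (-0.97 ± 0.25, adjusted p = 0.0617). Over CD4 Treg, 6 of the 67 were higher in CD8 Treg and 2 lower, where 8.51% and 8.35% of all genes tested were, so the share higher is near the background and the share lower under it. Pole2, the partner subunit of Pole, was among the higher ones at 1.997 and 1.41, 6.703 and 7.48 and 5.75 RPKM (1.82 ± 0.42, adjusted p = 0.0173). Hells (1.39 ± 0.28), Asf1a (1.19 ± 0.27), a histone chaperone, and Rfc1 (0.66 ± 0.17), the largest clamp loader subunit, were also higher (largest adjusted p = 0.0266), as were Tipin and Topbp1. Msh6 was lower (-1.003 ± 0.18, adjusted p = 0.00500), with Samhd1.

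Genes that control entry into S phase were called lower more often than higher in CD4 Treg. Of 28, 13 were lower and 3 higher than in CD49lo (median -0.76). Of all genes tested, 12.8% were called lower and 9.45% higher, so the share higher is near the background. The S phase cyclin Ccna2 was at 0.925 and 0.806, 3.78 and 30.6 and 16.7 RPKM (-4.05 ± 0.33, adjusted p = 3.40e-05), and the repressor E2f8 at 0.393 and 0.498, 1.34 and 10.1 and 5.41 (-3.03 ± 0.38, adjusted p = 0.000433). The G1 cyclins went both ways: Ccnd1 (-3.43 ± 0.41) and Ccnd3 (-1.12 ± 0.17) were lower and Ccnd2 (0.63 ± 0.10, adjusted p = 0.00215) was higher in CD4 Treg. Tfdp1, the partner of E2F factors (-1.09 ± 0.16), and the kinase inhibitor Cdkn2c (-1.72 ± 0.28) were lower, with a largest adjusted p of 0.00194 over these and the 2 lower cyclins. The kinase inhibitor Cdkn1b, a brake on S phase entry, was at 67.3 and 66.98, 34.3 and 38.9 and 46.8 RPKM and higher in CD4 Treg than in CD49lo (0.67 ± 0.12, adjusted p = 0.00259), as was Myc (0.65 ± 0.14, adjusted p = 0.00796).

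In CD8 Treg, 5 of the 28 were lower and 1 higher than in CD49lo (median -0.43), where 3.59% and 1.71% of all genes tested were. Myc, a driver of growth and cell cycle entry, was the 1 higher, at 37.9 and 37.8, 52.6 and 26.04 and 22.8 RPKM (1.23 ± 0.17, adjusted p = 0.00399). Those lower were E2f2 (-1.67 ± 0.22, adjusted p = 0.00346), Ccna2 (-2.31 ± 0.40, adjusted p = 0.0114), E2f8 (-1.997 ± 0.47, adjusted p = 0.0426), Rb1 and Cdk2. Rb1, the retinoblastoma repressor of E2F, was at 10.3 and 11.5, 4.46 and 10.3 and 10.9 RPKM, and Cdk2, the S phase kinase, at 10.9 and 10.3, 4.81 and 11.9 and 12.3 RPKM. Both were lower in CD8 Treg than in either other group: the log2 fold changes over CD49lo were -1.04 ± 0.20 and -1.12 ± 0.24 (adjusted p = 0.0168 and 0.0309) and over CD4 Treg -1.100 ± 0.20 and -0.96 ± 0.24 (adjusted p = 0.00472 and 0.0254). Also in CD8 Treg over CD4 Treg, Cdkn1b (-0.85 ± 0.14, adjusted p = 0.00321), Rbl2 (-0.55 ± 0.13, adjusted p = 0.0175) and E2f2 were lower, and Ccna2 (1.74 ± 0.40, adjusted p = 0.0168), Ccnd3 (0.91 ± 0.21, adjusted p = 0.0165), Ccnd1, Tfdp1 and Myc higher, in all 5 lower and 5 higher of 28. Of all genes tested, 8.35% were lower and 8.51% higher in that comparison.

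Mitosis genes are given beside the replication genes. Their summed level over 20 genes was 25.0 and 25.9 RPKM (CD4 Treg), 61.9 (CD8 Treg) and 404 and 253 (CD49lo). All 20 were lower in CD4 Treg than in CD49lo (median -3.11) and 13 of 20 in CD8 Treg (median -2.01), and 6 were higher in CD8 Treg than in CD4 Treg (median 1.06). Of all genes tested, 12.8%, 3.59% and 8.51% were called so in these comparisons. Ttk had 3 and 1 reads in CD4 Treg, 6 in CD8 Treg and 70 and 36 in CD49lo. It passed the filter only through CD49lo and is no support. The proliferation marker Mki67 was at 4.43 and 5.199, 9.97 and 66.04 and 39.9 RPKM, and Top2a, the topoisomerase of dividing cells, at 4.54 and 3.63, 11.3 and 62.7 and 45.8. Both were higher in CD8 Treg than in CD4 Treg (1.08 ± 0.26, adjusted p = 0.0201, and 1.47 ± 0.23, adjusted p = 0.00218). The difference between the lists was not tested.

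**Figure D4:**
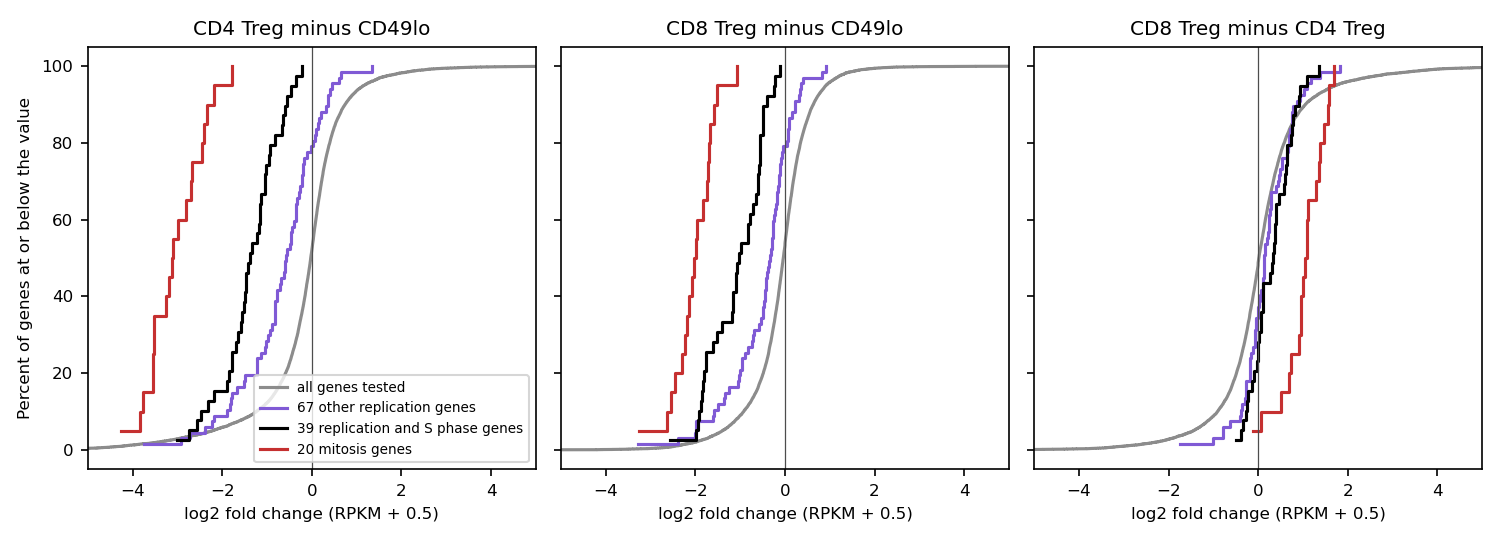
Cumulative share of genes at or below each log2 fold change, for the 39 replication genes, 67 other replication genes, 20 mitosis genes and all genes tested. At the medians of the first and second panels the mitosis curve lies furthest left (-3.11 and -2.01). The 39 genes (-1.38 and -1.03) and the other replication genes (-0.57 and -0.35) follow. In the left tail the order differs: the lowest of the other replication genes is at -3.75 and -3.29, the lowest of the 39 at -3.01 and -2.58.

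The CD49lo libraries differed from each other in the same genes. Replicate 1 was above replicate 2 for 35 of the 39 genes, where 51.6% of all genes tested were, and the median difference was 0.41 on the log2 scale against 0.01 over all genes. The largest were in Chaf1b (1.25), Chaf1a (1.004), E2f1 (0.95) and Mcm10 (0.93). The 4 genes higher in replicate 2 were Gins1, Rfc4, Rfc5 and Rpa3. The 20 mitosis genes were all higher in replicate 1 (median 0.62). In CD4 Treg, replicate 1 was above replicate 2 for 17 of the 39 genes, against 49% of all genes. The median log2 fold change of CD4 Treg over CD49lo was -1.19 without CD49lo replicate 1 and -1.58 without CD49lo replicate 2, and that of CD8 Treg over CD49lo was -0.74 and -1.21.

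**Figure D5:**
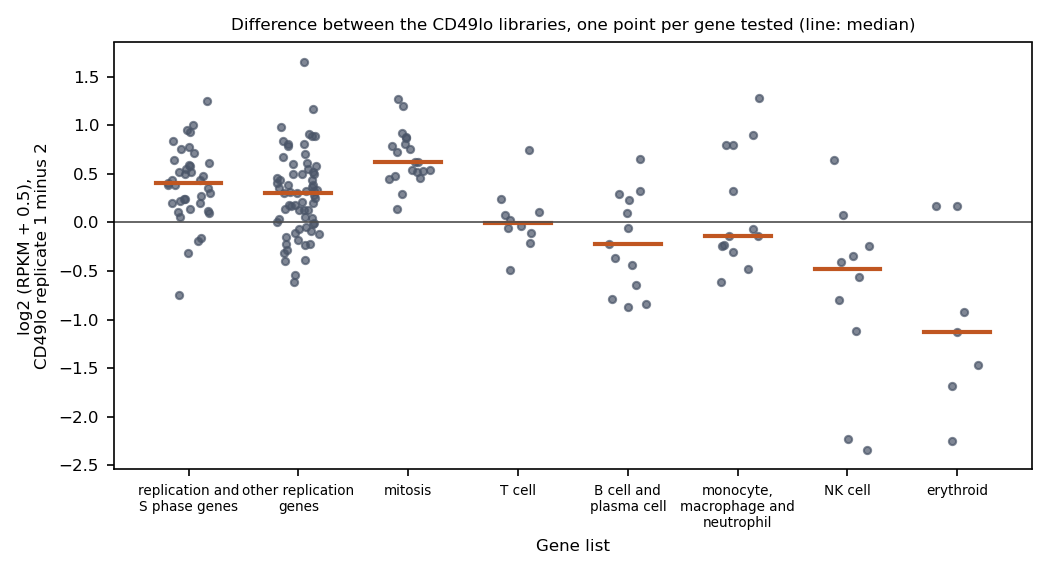
Difference between CD49lo replicates 1 and 2 on the log2(RPKM + 0.5) scale, 1 point per gene tested, with the median of each list as a line. The medians are 0.41 for the replication genes and 0.62 for the mitosis genes, and -0.22 (B cell), -0.14 (myeloid), -0.48 (NK cell) and -1.13 (erythroid), with single genes of these lists on both sides of 0.

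Markers of other cell types also moved with the groups. Of all genes tested, 12.8% were called lower and 9.45% higher in CD4 Treg than in CD49lo. For CD8 Treg the shares were 3.59% and 1.71%. Of 13 B and plasma cell genes, 11 were lower in CD4 Treg than in CD49lo and 0 lower in CD8 Treg, and their summed level was 501 and 578 RPKM (CD4 Treg), 463 (CD8 Treg) and 841 and 691 (CD49lo). Ighm alone was at 444 and 521, 285 and 518 and 336 RPKM. Blk, Fcer2a and Sdc1 were listed at 0 in CD4 Treg replicate 2. Sdc1 had 5 and 0 reads in CD4 Treg, 5 in CD8 Treg and 44 and 26 in CD49lo. It passed the filter only through CD49lo and is no support. Of 13 tested monocyte, macrophage and neutrophil genes, 12 were lower in CD4 Treg and 1 in CD8 Treg, with summed levels of 24.7 and 7.78, 335, and 590 and 546 RPKM. Of the 14 in the table, 2 and 9 were listed at 0 in the CD4 Treg libraries, Fcgr1 and Ly6g in both, and Ly6g also in CD8 Treg and CD49lo replicate 2. Of 10 dendritic cell genes, 6 were lower and 1 higher in CD4 Treg and 3 lower in CD8 Treg, with summed levels of 111 and 117, 90.8, and 131 and 127 RPKM. Xcr1, Batf3 and Clec10a were listed at 0 in both CD4 Treg libraries and Clec10a and Clec9a in CD8 Treg. Clec10a was therefore tested only because of its CD49lo reads. Of 10 NK cell genes, some of which CD8 T cells also express, 9 were lower in CD4 Treg and 1 in CD8 Treg, with summed levels of 14.1 and 10.3, 513, and 803 and 2267 RPKM; Ncr1 and Klra8 were listed at 0 in both CD4 Treg libraries. Of 7 tested erythroid genes, 3 were lower in CD4 Treg and 1 in CD8 Treg, with summed levels over all 10 of 27.1 and 14.5, 20.7, and 45.6 and 88.2 RPKM; Klf1 was listed at 0 in all libraries but CD49lo replicate 1. Between the CD49lo libraries the median difference, replicate 1 minus 2, was -0.22 for the B cell list, -0.14 for the myeloid, 0.07 for the dendritic cell, -0.48 for the NK cell and -1.13 for the erythroid list. Within them, neutrophil genes were higher in replicate 1, as the replication genes were: S100a8 by 0.800, S100a9 by 0.905, Csf3r by 0.797 and Mpo by 1.28. So were the plasma cell and immunoglobulin genes Ighm (0.66), Jchain (0.29), Sdc1 (0.33) and Xbp1 (0.23). The part of such cells in the replication gene differences was not tested.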

How the data were processed

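RNA-seq of 5 libraries was analysed from a table of RPKM values that the authors deposited, with reads processed by CASAVA and STAR on mm10 per the submitters' processing notes; the counter, its use of strand and the annotation are not given in the sources used here. Dividing by the value of 1 read gave whole reads, within 0.02, for 100% of nonzero values. Read totals were 5441444 to 8354971, and this depth limits genes with few reads.

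Genes with at least 10 reads at the median depth in 1 library and 15 reads in total were kept. RPKM was scaled by trimmed mean of M values factors (1.005, 1.011, 0.935, 1.015 and 1.038, in the order CD4 Treg, CD8 Treg, CD49lo). All 5 libraries entered 1 limma fit of log2(RPKM + 0.5), with 2 residual degrees of freedom, a variance trend and Benjamini-Hochberg adjustment over 13298 genes. R 4.3.3, limma 3.58.1, Python 3.11.15 and matplotlib 3.10.9 were used. The scripts were tested on simulated data, where recovery was required only of large changes in genes that were not scarce. That test does not cover the scarce genes of the list or smaller changes. The 39 genes and the other lists were chosen with earlier results of these data known. All 39 genes are named. From the other replication genes and the G1 and E2F control list, the 6 with the smallest p in each comparison are named, with those that went against the others or did not pass; Mki67 and Top2a stand for mitosis. Other genes of these lists were chosen after their values were seen. Promoter windows came from RefSeq (GRCm38.p6). Alternatives covered the pseudocount, filter, scaling, test, variance prior, replicate block and each replicate left out.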

Additional observations from a re-analysis of the deposited data

How the results depend on the processing

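The number of the 39 genes called lower in CD4 Treg than in CD49lo was 34. It was 3 without a filter (1.98% of all genes then tested called lower, against 12.8% in the main fit). It was 22 with a filter of 1 RPKM (11.2%) and 22 with a variance prior without a trend (9.38%). When 1 replicate was left out it fell, and so did the calls over all genes. Of 546 fold changes over 14 alternatives, 0 changed sign. The number lower in CD8 Treg than in CD49lo was 10. It was 0 without a filter (0.403% of all genes called lower, against 3.59% in the main fit). It was 0 with a filter of 1 RPKM (1.42%) and 0 with a prior without a trend (0.00752%). Without a scaling factor it was 17 (4.93%). When 1 replicate was left out it fell, and so did the calls over all genes. The number higher in CD8 Treg than in CD4 Treg was 3. It was 0 without a filter and 0 with a prior without a trend. In each fit without 1 replicate it fell, and so did the calls over all genes. The sign changed for 3 of 468 values in CD8 Treg over CD49lo (Cdt1, Chaf1b and Mcm2) and for 19 of 468 in CD8 Treg over CD4 Treg, in 10 genes of which none was called. Fits without 1 library have 1 residual degree of freedom in place of 2. Of the 34 calls in CD4 Treg, 3 held in all 10 other settings that left no replicate out. Of the 10 calls in CD8 Treg against CD49lo and the 3 against CD4 Treg, 0 held in all 8 such settings. Held least often were Rfc4 (5 of 10, CD4 Treg), Cdc45 (3 of 8, CD8 Treg against CD49lo) and Rpa2 (4 of 8, CD8 Treg against CD4 Treg). Without a scaling factor the median of all genes in CD8 Treg over CD49lo moved from -0.04 to -0.16. With replicate number as a block, 37 genes were lower in CD4 Treg. The deviations of same-numbered libraries had a correlation of -0.02 over 13298 genes, so the numbers are not shown to pair the libraries. By the Xist and Ddx3y levels above, same-numbered CD4 Treg and CD49lo libraries came from mice of different sex. The block therefore does not stand for a shared animal.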
